A study of Mus musculus with 6 samples.

Results

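The genes described here move protons, bicarbonate and ammonia across kidney epithelia. They were taken by name from the gene symbols of the array annotation: every symbol beginning with Atp6v0, Atp6v1 or Atp6ap, which are subunits of the vacuolar proton pump, and a set of 14 acid-base genes of the intercalated cell and its neighbours (Slc4a1, Slc4a4, Slc4a9, Slc26a4, Rhcg, Rhbg, Foxi1, Insrr, Car2, Car4, Car12, Car14, Car15 and Atp4a). This gave 38 of the 20416 genes measured, resting on 459 probe sets. Kidneys were compared between a B6-TGFbeta group of 3 arrays (replicates 1, 2 and 3), labelled WT, and a CBAxB6-TGFbeta group of 3 arrays (replicates 4, 5 and 6), labelled KO. B6 and CBA are the usual short names of inbred mouse strains. Both groups have TGFbeta in their names, and the labels give all 6 arrays a disease state of induced renal fibrosis, a scarring that the series title ties to the growth factor TGF-β1. The labels speak of littermates matched for age and sex but give no age, no sex, no promoter of a transgene and no name for a knocked-out gene. A difference of background, of the genotype behind WT and KO, or of the response to TGF-β1 cannot be told apart here. Nothing in the labels says more about how the 3 arrays of a group were sampled, so p-values measure the spread between these arrays.

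Intercalated cells are the acid-base cells of the collecting duct and connecting tubule. Type A cells pump protons into the urine with an apical vacuolar ATPase and return bicarbonate to blood through the basolateral exchanger AE1 (Slc4a1), whereas type B cells secrete bicarbonate through pendrin (Slc26a4). The vacuolar ATPase is a rotary pump with a cytosolic V1 sector that hydrolyses ATP and a membrane V0 sector that conducts protons. Several subunits exist as paralogs, of which one is widely expressed in the acid compartments of most cells and another is largely confined to specialised cells such as the intercalated cell.

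The arrays had median log2 intensities of 7.27 to 7.34. B6-TGFbeta replicate 2 stood apart in markers of tissues that lie next to the kidney. The 10 fat genes averaged a log2 intensity of 8.23 in it, against 5.91 to 6.73 in the other arrays, and the 11 adrenal genes averaged 8.26. The adrenal list also averaged 6.37 in replicate 1, against 5.58 to 5.66 in the remaining 4 arrays. Replicate 2 did not stand apart in the acid-base genes: its median deviation from the B6-TGFbeta mean over the 38 genes was -0.024, against 0.044 in replicate 1 and -0.027 in replicate 3. The median log2 difference between the groups over the 38 genes was -0.36 with all arrays and -0.33 without replicate 2. It was -0.34 with replicate 3 as the single B6-TGFbeta array.

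Acid-base genes were lower in CBAxB6-TGFbeta kidneys or did not pass the test. Of the 38 genes, 15 were lower at an adjusted p under 0.05 in limma with Benjamini-Hochberg adjustment over all genes, and 0 were higher, which leaves 23 that did not pass. Over all genes 4.57% were lower, 3.08% were higher and 7.65% passed in either direction. At an unadjusted p under 0.05, 23 of the 38 were lower and 0 were higher. The groups did not overlap, with every CBAxB6-TGFbeta array below every B6-TGFbeta array, in 23 of the 38 genes and in 13.4% of all genes. The reverse held in 0 of the 38 and in 13.5% of all genes, so that groups lay apart in either direction in 26.8% of all genes. The median log2 difference over all genes was 0.018. The differences were uneven. Of the 14 genes that are not pump subunits 10 were lower, of the 5 specialised pump paralogs 3 were lower, and of the other 19 pump genes 2 were lower. Since these are whole kidneys, fewer cells of a type and less RNA per cell cannot be told apart. Fewer genes were called when 1 array was left out and gene values were made anew from the rest. Of the 38 genes, 0 passed without B6-TGFbeta replicate 1, 2 or 3. There were 5, 2 and 4 that passed without CBAxB6-TGFbeta replicate 4, 5 and 6. The calls over all genes fell in the same fits from 1562 to 59, 77, 57, 269, 117 and 554.

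**Figure D1:**
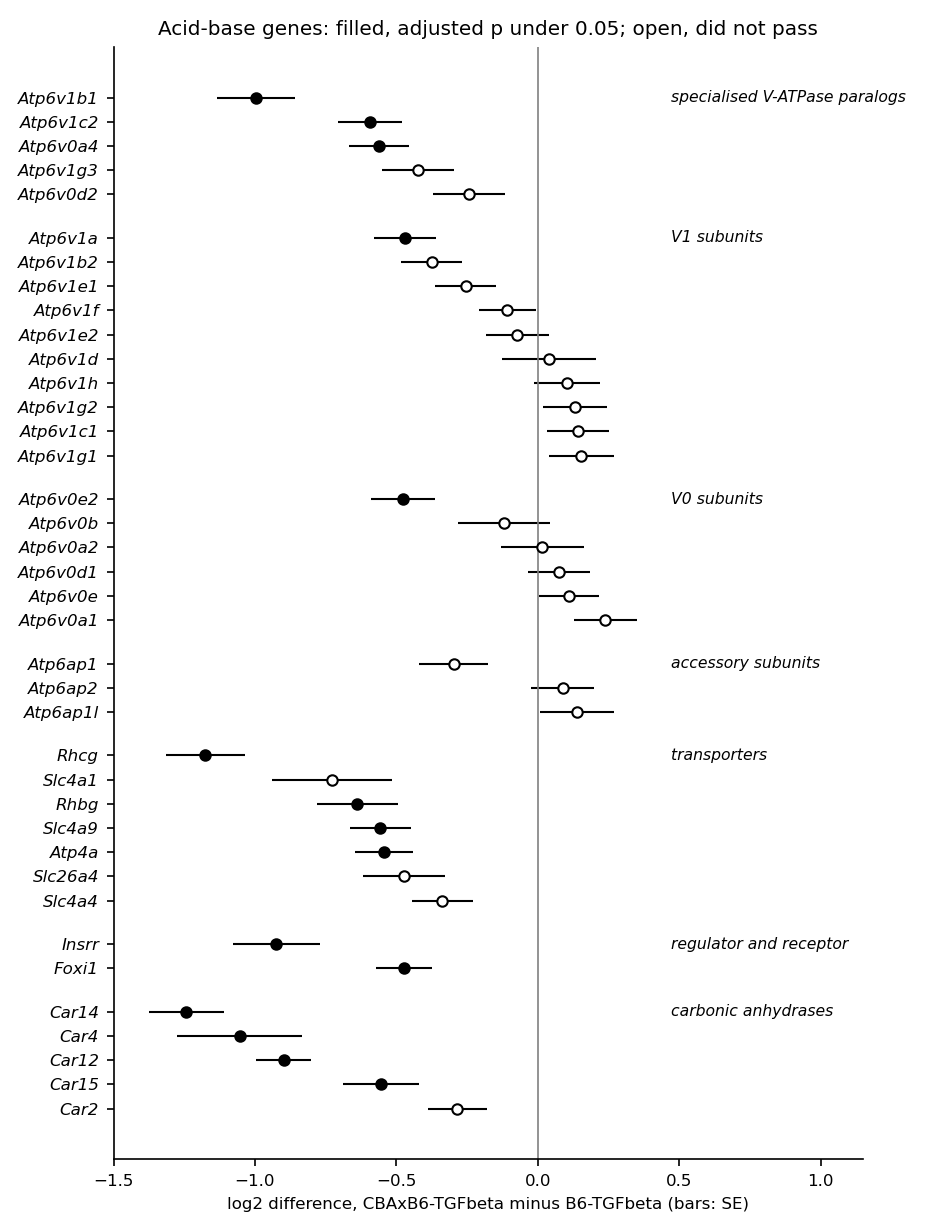
Log2 difference of each of the 38 genes, CBAxB6-TGFbeta minus B6-TGFbeta, with its standard error, ordered by role; filled points passed limma at an adjusted p under 0.05 and open points did not. The 15 filled points all lie left of 0, from Car14 at -1.24 to Atp4a, Atp6v0e2, Foxi1 and Atp6v1a between -0.55 and -0.47, and no open point on the right passes Atp6v0a1 at 0.24.

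Among the specialised pump paralogs, the B1 subunit had the largest difference. Atp6v1b1 encodes the B1 subunit of the V1 sector, whose human form is mutated in distal renal tubular acidosis with deafness. It had log2 intensities of 8.71, 8.74 and 8.83 in B6-TGFbeta replicates 1 to 3 and of 8.07, 7.71 and 7.53 in CBAxB6-TGFbeta replicates 4 to 6. The groups lay apart, and replicate 6 was the lowest array. The log2 difference was -0.997 (SE 0.14, limma adjusted p 0.00373), or 1.996-fold lower, and it was negative in 14 of 14 probe sets.

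Atp6v0a4 encodes a4, the membrane subunit of the same pump and another gene of human distal renal tubular acidosis. Its arrays read 11.32, 11.09 and 11.20 in B6-TGFbeta and 10.76, 10.54 and 10.63 in CBAxB6-TGFbeta. The spread within each group was small (SD 0.11 in both, n = 3), and the gene was 1.48-fold lower (log2 difference -0.56, SE 0.11, limma adjusted p 0.0144). On its brightest probe set it stood at -0.35 and did not pass (limma adjusted p 0.212). Atp6v1c2, the C2 subunit, read 6.92, 7.04 and 7.02 against 6.19, 6.53 and 6.48. It was 1.51-fold lower, with a log2 difference of -0.59 (SE 0.11, limma adjusted p 0.0157), but its brightest probe set alone stood at -0.09 and did not pass.

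The G3 and d2 subunits did not pass. Atp6v1g3 read 10.33, 10.46 and 10.34 in B6-TGFbeta and 9.71, 10.00 and 10.16 in CBAxB6-TGFbeta. Its groups did not overlap, yet the spread within CBAxB6-TGFbeta (SD 0.23, n = 3) left the log2 difference of -0.42 (SE 0.13) at a limma adjusted p of 0.0796. It was -0.26 without replicate 4. Atp6v0d2, which osteoclasts and macrophages also use, read 10.32, 10.21 and 10.24 against 9.94, 9.82 and 10.28. Replicate 6 lay among the B6-TGFbeta arrays, and the log2 difference was -0.24 (SE 0.13, limma adjusted p 0.324). It was -0.15 without replicate 5 and -0.14 on its brightest probe set.

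**Figure D2:**
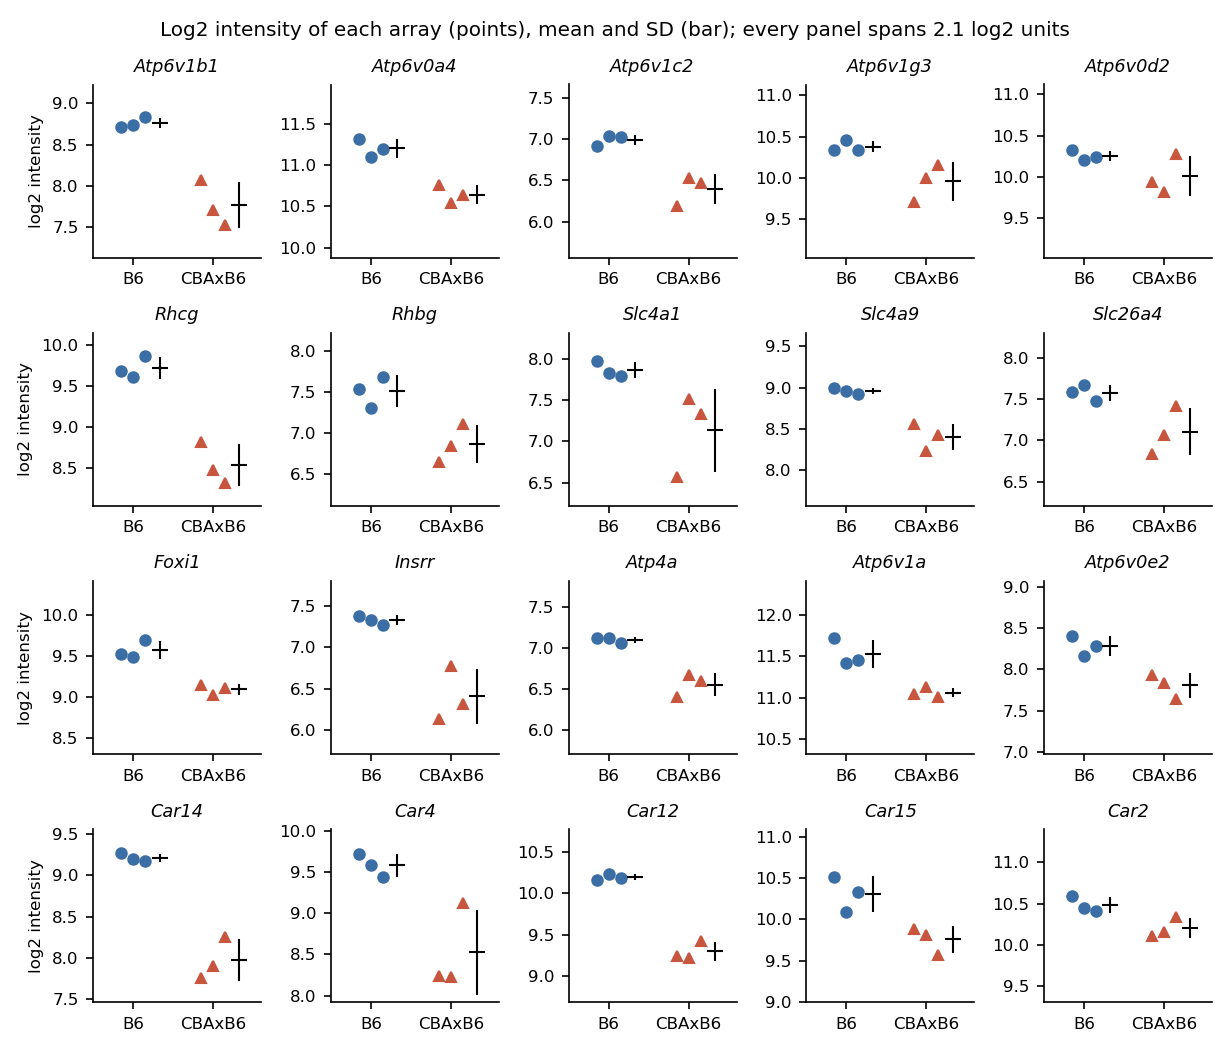
Log2 intensity of each array for 20 acid-base genes, with circles for the 3 B6-TGFbeta arrays, triangles for the 3 CBAxB6-TGFbeta arrays and bars for the mean and SD of each group; all panels span the same range. The groups lie apart in every panel but Atp6v0d2, and single CBAxB6-TGFbeta arrays stand away from the other two in Car4 (replicate 6 at 9.12) and Slc4a1 (replicate 4 at 6.56).

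Whether the specialised subunits differed more than their widely expressed paralogs was asked within each array, by the log2 ratio of the 2 paralogs, in 5 pairs. The ratio was below every B6-TGFbeta array in every CBAxB6-TGFbeta array for 4 of the 5 pairs. How often this holds for ratios of other genes was not computed. Among single genes, every CBAxB6-TGFbeta array lay below every B6-TGFbeta array in 13.4% of all genes. The ratio of a4 to a1 (Atp6v0a4 to Atp6v0a1) differed by -0.80 on the log2 scale, that of C2 to C1 (Atp6v1c2 to Atp6v1c1) by -0.74, that of B1 to B2 (Atp6v1b1 to Atp6v1b2) by -0.62 and that of G3 to G1 (Atp6v1g3 to Atp6v1g1) by -0.58. Each of these had a two-sided exact permutation p of 0.1, the smallest that 3 arrays against 3 can give, and 0.125 after Benjamini-Hochberg adjustment over the 5 pairs. This exact test therefore cannot place a pair under 0.05 with these arrays. The ratio of d2 to d1 (Atp6v0d2 to Atp6v0d1) differed by -0.32 with an exact permutation p of 0.4, and its value in replicate 6 was 0.13 above the B6-TGFbeta mean. Without the dimmer 50% of probe sets of each gene the B1 to B2 difference was -0.32 and the d2 to d1 difference -0.21. Taking only the brightest probe set of a gene, the C2 to C1 difference was -0.43 and the d2 to d1 difference -0.098. Gene values were made anew in fits with an array left out, and there 2 pairs moved by over 1.5 times. The G3 to G1 difference stood at -0.37 without replicate 4. That of d2 to d1 stood at -0.19 without replicate 5, -0.20 without replicate 3 and -0.51 without replicate 6.

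**Figure D3:**
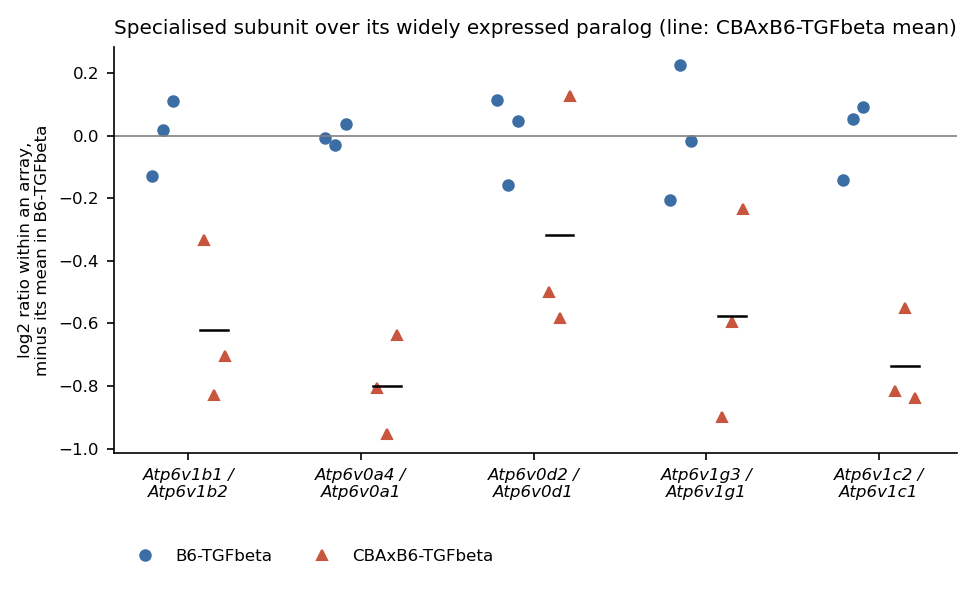
Log2 ratio of a specialised pump subunit to its widely expressed paralog within each array, minus the mean of that ratio in B6-TGFbeta, for 5 pairs; circles are B6-TGFbeta arrays, triangles CBAxB6-TGFbeta arrays and short lines the CBAxB6-TGFbeta means. The triangles lie below the circles in 4 pairs, with means of -0.58 to -0.80, and overlap them in Atp6v0d2 over Atp6v0d1.

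The other pump subunits had differences in both directions. Of 10 other V1 genes, Atp6v1a alone was lower, and 9 did not pass. It encodes the catalytic A subunit, which has no specialised paralog. Its arrays read 11.72, 11.42 and 11.45 in B6-TGFbeta and 11.05, 11.13 and 11.01 in CBAxB6-TGFbeta. The groups lay apart, by a log2 difference of -0.47 (SE 0.11, limma adjusted p 0.0338). All 16 of its probe sets were negative, but its brightest stood at -0.073. Atp6v1b2, the widely expressed paralog of B1, read 10.45, 10.33 and 10.33 against 10.01, 10.14 and 9.84. These groups did not overlap, with a log2 difference of -0.37 (SE 0.11) and a limma adjusted p of 0.0701. It passed without the dimmer 50% of probe sets (-0.48, limma adjusted p 0.0425) and with trended and robust moderation (limma adjusted p 0.0499). The other 8 genes of the sector ran from -0.25 in Atp6v1e1, a subunit of the peripheral stalk, to 0.15 in Atp6v1g1, and among these the groups did not overlap in Atp6v1e1 alone.

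Of 6 other V0 genes, Atp6v0e2 was lower and 5 did not pass. This small membrane subunit read 8.40, 8.16 and 8.29 in B6-TGFbeta and 7.94, 7.84 and 7.64 in CBAxB6-TGFbeta. The log2 difference was -0.48 (SE 0.11, limma adjusted p 0.0366), and -0.14 on its brightest probe set. Its paralog Atp6v0e had a log2 difference of 0.11 (SE 0.11). Atp6v0a1, the a1 subunit of the V0 sector in many endosomal and synaptic membranes, had the highest difference of the 38 genes with all 6 arrays. These read 8.91, 8.71 and 8.75 against 9.15, 9.08 and 8.86, which overlap, and the log2 difference of 0.24 (SE 0.11) did not pass (limma adjusted p 0.261). With gene values made anew without replicate 4 it was 0.12, where Atp6ap1l and Atp6v1c1 stood above it at 0.24 each. It was 0.15 when made anew without replicate 3, and 0.51 on its brightest probe set. The d1 subunit gene Atp6v0d1 stood at 0.075 (SE 0.11). Of the 3 accessory genes, Atp6ap1, which encodes the chaperone-like Ac45, stood at -0.30 (SE 0.12, limma adjusted p 0.192) with groups that did not overlap, and at -0.18 without replicate 6. Atp6ap2, the prorenin receptor, stood at 0.088 (SE 0.11). Atp6ap1l, dim at means of 3.92 and 4.05, stood at 0.14 (SE 0.13), and at 0.0040 without replicate 6.

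Promoter windows from RefSeq (GRCm38.p6), from 250 bases before to 50 after a gene's start, were found for 26 of the 38 genes, in 28 windows. They were searched on both strands for CACGTG, the core of the element bound by the lysosomal regulator TFEB, and for TGTTTAC and TGTTTAT, forkhead motifs of the kind bound by FOXI1. Background knowledge has FOXI1 as the regulator that intercalated cells need to express the B1 and a4 subunits. The 3 windows shown are those of the single gene with a forkhead match and of a passing and a not passing gene of the wide set with CACGTG. Capitals mark the matches, and each sequence is the part before the start, read 5′ to 3′ on the gene's strand: Atp6v1b1 at chr6:83742767-83743016, + strand, Atp6v1a at chr16:44139260-44139509, - strand, and Atp6v0b at chr4:117887330-117887579, - strand.
Atp6v1b1: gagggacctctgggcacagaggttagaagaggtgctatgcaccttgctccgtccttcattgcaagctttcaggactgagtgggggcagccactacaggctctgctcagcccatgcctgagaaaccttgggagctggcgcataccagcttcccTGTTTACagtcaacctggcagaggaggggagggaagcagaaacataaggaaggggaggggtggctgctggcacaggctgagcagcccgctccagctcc
Atp6v1a: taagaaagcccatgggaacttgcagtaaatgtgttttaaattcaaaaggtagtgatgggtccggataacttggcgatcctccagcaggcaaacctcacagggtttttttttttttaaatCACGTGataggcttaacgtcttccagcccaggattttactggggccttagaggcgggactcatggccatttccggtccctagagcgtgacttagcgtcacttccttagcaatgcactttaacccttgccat
Atp6v0b: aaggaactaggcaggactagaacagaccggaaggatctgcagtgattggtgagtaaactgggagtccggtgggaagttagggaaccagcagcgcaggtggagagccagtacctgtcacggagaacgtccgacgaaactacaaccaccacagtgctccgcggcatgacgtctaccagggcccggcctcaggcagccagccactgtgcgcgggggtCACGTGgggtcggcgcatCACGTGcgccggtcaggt
TGTTTAC was found in 1 of the 28 windows, that of Atp6v1b1, 98 bases before the start, and in 3.65% of all 32851 windows. TGTTTAT was found in 0 of the 28 and in 4.6% of all. CACGTG was found in 4 of the 28 windows and in 7.15% of all, namely in Atp6v1a, Atp6v0b, Atp6v0d1 and Atp6v0e. It lies 131 bases before the start of Atp6v1a and at 36 and 18 bases before that of Atp6v0b. Of these 4 genes Atp6v1a was lower, while Atp6v0b stood at -0.12 (SE 0.16) and did not pass. Atp6v0d1 and Atp6v0e stood at 0.075 and 0.11 (SE 0.11 each) and did not pass either. A match of letters is not a bound site.

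Both ammonia transporters were lower. Rhcg carries ammonia across the apical and basolateral membranes of collecting duct cells, a step in excreting acid. It read 9.68, 9.60 and 9.86 in B6-TGFbeta and 8.82, 8.48 and 8.32 in CBAxB6-TGFbeta, 2.26-fold lower (log2 difference -1.18, SE 0.14, limma adjusted p 0.00169). Its basolateral relative Rhbg read 7.54, 7.30 and 7.68 against 6.65, 6.85 and 7.11, with a log2 difference of -0.64 (SE 0.14, limma adjusted p 0.0290). Neither gene had overlapping groups. In Rhcg 12 of 14 probe sets were negative, from -2.17 to -0.66, and the last 2 by probe set number stood at 0.088 and 0.16. This grouping was chosen after the values were seen.

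The chloride and bicarbonate exchangers of both intercalated cell types had negative differences, and one of the 3 passed. Slc4a9, the basolateral exchanger AE4 of type B cells, was lower: 8.99, 8.96 and 8.93 against 8.55, 8.24 and 8.42, a log2 difference of -0.56 (SE 0.11, limma adjusted p 0.0155), negative in 26 of 26 probe sets. Pendrin (Slc26a4), the apical exchanger of type B cells, read 7.58, 7.67 and 7.48 against 6.84, 7.06 and 7.41. The groups lay apart by little, since replicate 6 was close to B6-TGFbeta replicate 3, and the log2 difference of -0.47 (SE 0.14) did not pass (limma adjusted p 0.0872).

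Slc4a1, the exchanger AE1 of type A cells and of red blood cells, read 7.97, 7.83 and 7.79 in B6-TGFbeta and 6.56, 7.51 and 7.33 in CBAxB6-TGFbeta. Replicate 4 was the lowest by far. The log2 difference of -0.73 (SE 0.21) did not pass with median polish (limma adjusted p 0.0747), but passed with the mean of its probe sets (-0.77, limma adjusted p 0.00612) and with its brightest probe set alone (-1.38, limma adjusted p 0.00636). The size of the difference moved when an array was left out and the gene value was made anew from the rest. It was -0.24 without replicate 4, -0.43 without replicate 1 and -0.45 without replicate 3. The part of the missing array and that of the new gene value were not separated. The 19 probe sets of Slc4a1 did not move as one. The first 16 by probe set number were all negative, from -2.58 to -0.011 with a median of -0.86, and the last 3 were all positive, from 0.22 to 0.62. This split was chosen after its values were seen. As background, the kidney transcript of this gene starts downstream of the first exons of the erythroid one; the positions of the probe sets in the gene were not used here. Of 16 erythroid genes listed, 8 were measured and 0 passed in limma in either direction (0 lower and 2 higher at an unadjusted p under 0.05). Their mean log2 intensity was 6.23 to 6.40 in B6-TGFbeta and 6.45 to 6.66 in CBAxB6-TGFbeta, with Hbb-b1, a beta globin gene, at 0.94 (limma adjusted p 0.0728). The part of red cells in the values of Slc4a1 was not tested.

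The remaining transporters were Atp4a and Slc4a4. Atp4a, the catalytic subunit of the gastric proton-potassium pump, which is also found in the collecting duct, read 7.12, 7.12 and 7.06 against 6.40, 6.67 and 6.60. It was 1.46-fold lower (log2 difference -0.55, SE 0.10, limma adjusted p 0.0144), and stood at -0.86 on its brightest probe set, where it did not pass (limma adjusted p 0.0805). Of the 4 stomach parietal cell genes 0 passed in limma (0 also at an unadjusted p under 0.05), at a mean log2 intensity of 5.67 to 5.88 in B6-TGFbeta and 5.70 to 5.82 in CBAxB6-TGFbeta. Slc4a4, the sodium-bicarbonate cotransporter of the proximal tubule's basolateral membrane, read 12.33, 12.27 and 12.31 against 11.84, 11.92 and 12.15. These arrays lay apart, but the log2 difference of -0.34 (SE 0.11) had a limma adjusted p of 0.0985. It passed with trended and robust moderation (limma adjusted p 0.0494), while its brightest probe set stood at -0.052.

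The regulator and the receptor in the set were both lower. Foxi1, the forkhead factor that intercalated cells need to form, read 9.53, 9.49 and 9.69 in B6-TGFbeta and 9.15, 9.02 and 9.12 in CBAxB6-TGFbeta. This is a log2 difference of -0.47 (SE 0.10, limma adjusted p 0.0225), on 3 probe sets, of which the brightest stood at -0.10 and did not pass. Insrr, an insulin receptor relative that senses alkaline fluid in type B cells, read 7.38, 7.34 and 7.27 against 6.13, 6.77 and 6.31. It was 1.90-fold lower (log2 difference -0.92, SE 0.15, limma adjusted p 0.00867), negative in 21 of 22 probe sets, from -2.69 to 0.37. The arrays of CBAxB6-TGFbeta differed among themselves in Insrr (SD 0.33) more than in Foxi1 (SD 0.07, n = 3 each).

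Carbonic anhydrases interconvert carbon dioxide and bicarbonate, and 4 of the 5 in the set were lower. The membrane-bound forms had the larger differences. Car14, a transmembrane form of proximal tubule and thin limb, read 9.27, 9.20 and 9.17 against 7.75, 7.91 and 8.25. It had the lowest difference of the 38 genes, 2.37-fold lower (log2 difference -1.24, SE 0.13, limma adjusted p 0.00100), negative in 8 of 8 probe sets. Car4, the lipid-anchored form of brush border and type A cells, read 9.71, 9.59 and 9.43 against 8.23, 8.22 and 9.12. Replicate 6 lay near B6-TGFbeta, and the log2 difference of -1.05 (SE 0.22, limma adjusted p 0.0224) was -1.32 without it.

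Car12, a transmembrane form of distal and collecting duct cells, separated the groups with little spread: 10.16, 10.24 and 10.18 against 9.24, 9.22 and 9.42. Its log2 difference was -0.90 (SE 0.10, limma adjusted p 0.00109), and it passed in 9 of 13 alternatives, more than any other of the 15. Car15, a lipid-anchored form of rodents, read 10.51, 10.09 and 10.33 against 9.88, 9.81 and 9.57, with a log2 difference of -0.55 (SE 0.13, limma adjusted p 0.0393). Its brightest probe set stood at -0.86 and did not pass (limma adjusted p 0.0931). The cytosolic form Car2, which intercalated and proximal tubule cells and red cells hold, read 10.59, 10.45 and 10.41 against 10.11, 10.15 and 10.34. It did not pass, with a log2 difference of -0.28 (SE 0.11, limma adjusted p 0.152), although its groups did not overlap, and its brightest probe set stood at -0.022.

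Probe sets were also counted by the sign of their difference. Gene values are made from these same probe sets, so the shares are no separate support for them. Over all measured genes 50.1% of probe sets had a negative difference. The share was 95.1% (195 of 205) in the 15 genes that passed, which were selected for the difference. It was 64.2% (163 of 254) in the 23 that did not pass. It was 92.4% (61 of 66) in the 5 specialised pump paralogs and 56.3% (107 of 190) in the other 19 pump genes. When a gene was read from its brightest probe set only, 5 genes of the 38 passed, all lower, where 617 of all genes passed. These were Car14, Car12, Atp6v1b1, Slc4a9 and Slc4a1, the last of which had not passed before.

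**Figure D4:**
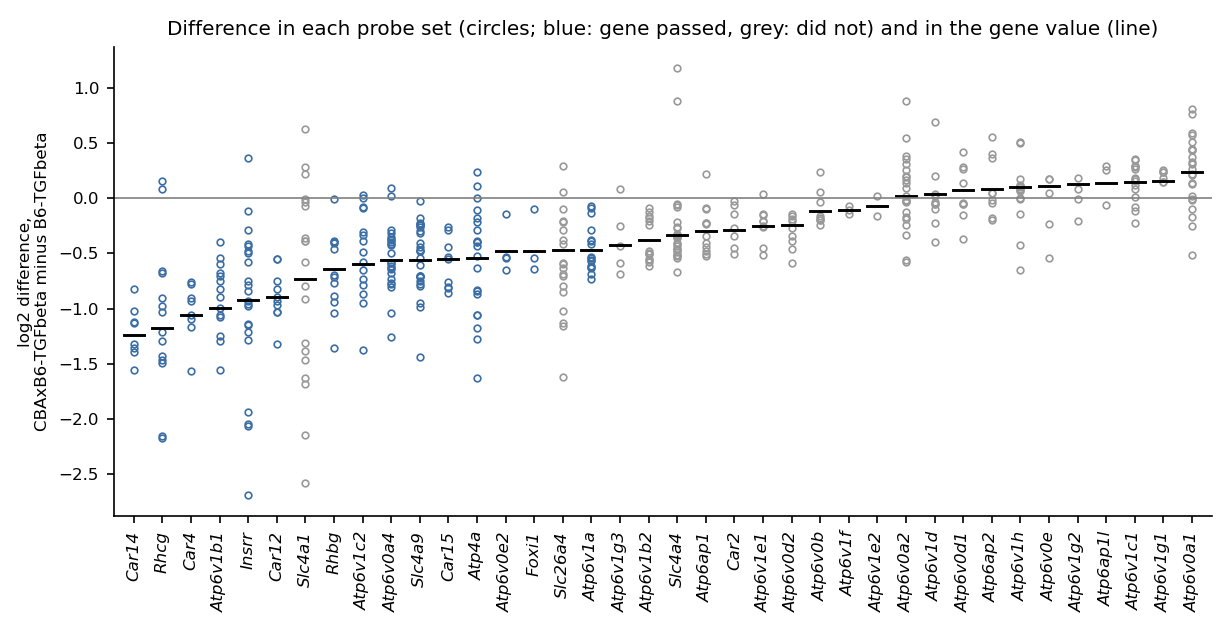
Log2 difference in each of the 459 probe sets of the 38 genes (circles, blue where the gene passed and grey where it did not) and in the gene value (black line), with genes ordered by that value. Probe sets of Slc4a1 run from -2.58 to 0.62 and those of Insrr from -2.69 to 0.37, the widest spreads of the set, while those of Car14 and Car12 all lie below 0.

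Across the arrays, the 3 CBAxB6-TGFbeta kidneys departed from the B6-TGFbeta mean by similar amounts over the 38 genes, with median deviations of -0.37, -0.38 and -0.35 in replicates 4, 5 and 6. Over the 15 genes that passed, which were selected for the difference, the medians were -0.70, -0.66 and -0.57. The arrays differed in which genes were lowest. Replicate 6 was the lowest of the 3 in Atp6v1b1, Rhcg, Car15 and Atp6v0e2, whereas replicate 4 was the lowest in Slc4a1, Insrr, Slc26a4, Rhbg, Atp6v1g3, Atp6v1c2 and Car14. Replicate 4 was the lowest of all 6 arrays in 13 of the 38 genes, replicate 5 in 7 and replicate 6 in 12.

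Other genes of acid-base handling and of pump assembly were read from a list of 55, of which 48 were measured. In limma 10 of them passed as lower and 1 as higher, which leaves 37, and their median log2 difference was -0.16. Those with the smallest p were Car13, Slc9a3, Pck1 and Slc38a3. Car13, a cytosolic carbonic anhydrase, rose from a mean of 7.64 to 9.31, a log2 difference of 1.66 (SE 0.11, limma adjusted p 0.000123), opposite to the 4 anhydrases above. Slc9a3, the sodium-proton exchanger NHE3 of the proximal tubule, was lower by -1.07 (SE 0.10). So were Pck1 (-1.99, SE 0.21) and the glutamine transporter Slc38a3 (-0.99, SE 0.12), both used in making ammonia. Tcirg1, the a3 subunit of the pump in osteoclasts and macrophages, stood at -0.033 (SE 0.13) and did not pass.

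Markers of neighbouring cells moved in the same comparison, and their part in the values above was not tested. Of 16 proximal tubule genes 14 were lower, and their mean log2 intensity was 11.06 to 11.24 in B6-TGFbeta and 9.40 to 10.13 in CBAxB6-TGFbeta. Of 8 genes of the loop and distal tubule 6 were lower (10.41 to 10.51 against 9.21 to 9.58). Of 14 principal cell genes, which mark the other main cell of the collecting duct, 6 were lower (8.54 to 8.71 against 8.15 to 8.40). The median log2 differences were -1.16, -0.95 and -0.42, beside -0.36 for the 38 acid-base genes, -0.56 for the 5 specialised pump paralogs and -0.60 for the 14 genes that are not pump subunits. Of 15 macrophage and osteoclast genes measured, 7 were higher and 8 did not pass, at means of 7.10 to 7.34 against 7.84 to 8.30. Fat and adrenal genes had 0 calls in limma (0 and 3 at an unadjusted p under 0.05). Whether the acid-base genes differed more or less than those of other tubule cells was not tested.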

How the data were processed

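Kidney RNA on 6 arrays was read from the deposited table of log2 intensities, which holds 241576 probe sets. RMA and Partek made these values per the submitters' processing notes, without versions; the sources used here do not give the background correction or the genome build of the probe sets. Of the probe sets, 212097 carried 1 gene symbol, 4475 several and 25004 none; those with 1 symbol were combined into 20416 genes by median polish. All 38 symbols are current in RefSeq.

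The groups were compared over all genes with limma 3.58.1 (R 4.3.3; 1 group term, moderated variances, two-sided, Benjamini-Hochberg adjustment, threshold 0.05). Differences are CBAxB6-TGFbeta minus B6-TGFbeta on the log2 scale, with moderated standard errors; groups are given as arrays or mean and SD (n = 3). Pairs of paralogs were compared by exact permutation of arrays. The number of arrays limits the precision. The gene summary and the limma fit were run on simulated probe sets with planted changes, as a check of the median estimates. The simulated noise was independent between genes and arrays, so this does not test the calls made here.

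Named are all members that passed, those that define intercalated cells, the paralogs of the pairs and the extremes of each role. Of other lists, up to 4 genes with the smallest p are named. Atp6v1e1, Atp6v0e, Atp6v0b, Atp6ap2, Tcirg1, Hbb-b1 and the probe set splits of Slc4a1 and Rhcg were added after their values were seen. The members and lists were chosen with earlier results of these data known. Alternatives were trended and robust moderation, a second quantile normalization, 3 other gene summaries, removal of the dimmest 25% of genes, each array left out, and replicate 3 as the single B6-TGFbeta array. Where arrays were left out, gene values were made anew by median polish of the remaining arrays. Those values need not match the array values printed above.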

Additional observations from a re-analysis of the deposited data

How the results depend on the processing

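Over 13 alternatives the count of lower genes, 15 of 38, ran from 15 to 17 with a second quantile normalization, the mean of probe sets, removal of dim genes and trended and robust moderation, and was 10 without the dimmer 50% of probe sets. It was 5 when genes were read from their brightest probe set and 0 to 5 with 1 array left out. The cause of these lower counts was not tested. Fits with 1 array left out had both fewer arrays and gene values made anew from them. With replicate 3 as the single B6-TGFbeta array, the median log2 difference over the 38 genes was -0.34. The count of higher genes was 0 in each alternative counted. Calls over all genes were 617 on the brightest probe sets and 57 to 554 with 1 array left out, against 1562. Each of the 15 genes missed the threshold in 3 (Car12) to 6 of the 6 fits with 1 array left out. None of them changed sign in any alternative. Among the 28 genes named by rule, 363 values were compared: 244 kept direction and side of the threshold, 111 missed it, 5 passed it and 3 changed sign. The 3 are of Atp6v0d1, which had not passed. It stood at -0.042 on the brightest probe set, -0.0035 without the dimmer 50% of probe sets and -0.031 without B6-TGFbeta replicate 3. The last used a gene value made anew from the remaining arrays, and such fits of Atp6v0d1 ran from -0.031 to 0.158. The 5 paralog differences kept their sign in the 11 alternatives that bear on them. No paired analysis was possible because the labels do not say which arrays, if any, come from the same litter. Dim signal limits Atp6ap1l.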

Other observations

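Probe sets that carry 2 gene symbols were left out of the gene values. Of these, 4 name an acid-base gene. The one shared by Atp6v0a4 and Tmem213 read 9.80, 9.65 and 9.91 in B6-TGFbeta and 8.98, 8.69 and 8.56 in CBAxB6-TGFbeta, a log2 difference of -1.05. Those shared by Atp6v0a4 and D630045J12Rik stood at -0.59 and -0.32, and the groups of the second overlapped. The one shared by Aph1a and Car14 stood at -0.78. All 4 had the sign of the acid-base gene they name.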
